A study of Mus musculus with 3 samples.

Results

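The genes described here are 8 core pluripotency factors of the mouse, *Pou5f1* (also called *Oct4*), *Nanog*, *Sox2*, *Sall4*, *Utf1*, *Dppa2*, *Dppa4*, and *Zfp281*. They were taken by name from a count table of 55421 named genes, and each of the 8 was found once. The samples were 3 RNA-seq libraries of ALSCs, a stem cell line grown from the epiblasts of E6.5 gastrulas with Activin A at 20 ng/ml and LIF at 1000 U/ml in N2B27 medium on fibronectin. The embryos came from ICR females mated with males that carry GOF/GFP, an Oct4ΔPE-GFP reporter in which GFP is driven by *Pou5f1* regulatory sequence without the proximal enhancer. The columns of the count table are named for EPI and AL and were matched to the ALSC titles by AL and number, a name that could also stand for EpiSCs grown in AL medium, and the values hold for ALSCs only if that match is right. All 3 libraries share this condition, so the results are levels and their spread, and no comparison between treatments was made. The study calls its RNA-seq replicates biological, while the labels do not say whether the 3 libraries came from separate cultures or lines, so a p-value given here measures only the spread between them, which may be technical.

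OCT4, SOX2, and NANOG are DNA-binding proteins that sit together on enhancers of pluripotent cells, where OCT4 and SOX2 bind side by side as a pair. SALL4 and ZFP281 are zinc finger proteins that work with them and with the nucleosome remodelling and deacetylase (NuRD) complex. UTF1 is a chromatin protein of early embryonic cells. DPPA2 and DPPA4 bind each other and CpG-rich promoters, and act upstream of genes of the early cleavage embryo and the germ line. Epiblast cells of the gastrula use the first group of factors, while *Dppa2* and *Dppa4* are best known from preimplantation embryos, naive embryonic stem cells, and germ cells.

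The libraries held 18037342 to 18724038 counts on named genes, so that 3 counts on a gene of 1 kb equal 0.160 to 0.166 FPKM. FPKM here is the count divided by the gene's length and by the library's total count, in the usual FPKM scaling. A floor of 3 counts is used as the level that a count of 0 still allows, and it covers counting error only. The epiblast markers other than the members (*Otx2*, *Fgf5*, *Pou3f1*, *Tdgf1*, *Epcam*, *Cdh1*, *Lin28a*, *L1td1*) reached at least 1 FPKM in all libraries in 8 of 8 cases. Of all named genes 20.1% did so. The summed level of these markers ranged from 867 to 877 FPKM. Most of it was *Tdgf1*, *L1td1*, *Lin28a*, and *Epcam*, with means of 288, 254, 157, and 116 FPKM. *Otx2* and *Fgf5* had means of 5.08 and 3.89 FPKM. *Tdgf1*, *L1td1*, and *Lin28a* are also among the targets of OCT4, SOX2, and NANOG listed below. Of the trophoblast markers, the defining genes *Cdx2*, *Elf5*, and *Hand1* had at most 1 count in any library, while the keratins *Krt8* and *Krt18* made up nearly all of a summed level of 53.6 to 63.7 FPKM. Of 4 endoderm markers only *Foxa2* reached 1 FPKM in all libraries, and the endoderm sum was 1.77 to 2.92 FPKM. Of 4 mesoderm markers only *Eomes* did, with a sum of 2.34 to 2.75 FPKM. Of 3 neural markers (*Sox1*, *Pax6*, *Map2*) only *Sox1* did, with a sum of 8.63 to 9.84 FPKM. *Sox11*, which the study also names as a neural lineage marker, was not in this list. It had 16.9, 20.6, and 19.6 FPKM in replicates 1, 2, and 3, above that sum. The germ cell markers *Dazl* and *Ddx4* were at 0 and at 4 to 6 counts, and the germ cell sum of 0.525 to 1.75 FPKM was mostly *Dppa3*. The 4 fibroblast markers had at most 3 counts each. Replicate 1 stood apart from the others, with a ratio to them that moved with gene length. The calls and some ratios between members are given with and without it below, and the remaining ratios are given with it only.

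The sequences below show what the study's own RT-qPCR primers for *Oct4*, *Sox2*, and *Nanog* read in these transcripts. They come from the study's primer list and were placed on GENCODE M21 transcripts (GRCm38). All 3 genes lie on the forward strand, and no base is set in capitals because the whole primer is read.
Pou5f1 forward: gcttgggctagagaaggatgtg
Pou5f1 reverse: tggcgccggttacagaac
Sox2 forward: catgagagcaagtactggcaag
Sox2 reverse: ccaacgatatcaacctgcatgg
Nanog forward: aaaccagtggttgaagactagcaa
Nanog reverse: ggtgctgagcccttctgaatc
The *Pou5f1* forward primer crosses the junction of exons 4 and 5 (chr17:35510121-35510290, the intron included), and with the reverse primer in exon 5 it encloses 51 bases of coding sequence. Both primers matched 1 of the 6 annotated *Pou5f1* transcripts, and 1 of them also matched the processed pseudogene *Gm5712*, which had 0 counts in every library. The *Nanog* reverse primer crosses the junction of exons 3 and 4 (chr6:122712709-122713155), and the pair encloses 51 coding bases in 3 of 3 transcripts. The *Sox2* pair encloses 127 bases of the 3′ UTR of the only exon (chr3:34652019-34652145). No other annotated gene held both primers of any pair.

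The RefSeq promoters (build GRCm38.p6) of the members were also searched for the motifs that OCT4 and SOX2 read. The letters searched were the POU motif ATGCAAA, the SOX motifs CATTGT and CTTTGT, and a composite in which a SOX motif, any 1 base, and the POU motif follow each other, on both strands and in 250 bases before to 50 after the start. The composite therefore always contains the other motifs. The 250 upstream bases of *Nanog* (chr6:122707239-122707488, forward strand) and *Sox2* (chr3:34649745-34649994, forward strand) are printed because they were the members' windows with a POU motif; capitals mark the composite in *Nanog*, written here as its reverse complement, and the POU motif in *Sox2*.
Nanog promoter: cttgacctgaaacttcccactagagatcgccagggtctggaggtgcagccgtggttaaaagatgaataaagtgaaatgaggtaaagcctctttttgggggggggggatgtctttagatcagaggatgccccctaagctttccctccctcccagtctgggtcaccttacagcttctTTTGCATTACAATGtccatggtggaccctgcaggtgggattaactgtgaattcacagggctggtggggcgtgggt
Sox2 promoter: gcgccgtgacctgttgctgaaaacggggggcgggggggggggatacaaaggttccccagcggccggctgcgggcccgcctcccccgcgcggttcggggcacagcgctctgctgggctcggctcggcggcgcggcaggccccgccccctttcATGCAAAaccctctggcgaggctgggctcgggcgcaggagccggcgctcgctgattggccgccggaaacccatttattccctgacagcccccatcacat
The *Nanog* match, CATTGTAATGCAAA on the reverse strand, lies at chr6:122707414-122707427 and begins 75 bases before the start site of this window. A second RefSeq window of *Nanog* overlaps the first and holds the same match. The composite occurred in 3 of 32851 promoter windows (0.00913%), of which 2 were these windows of *Nanog*. The POU motif alone was found in 1520 windows (4.63%), among them that of *Sox2*, where it lies at chr3:34649896-34649902 on the forward strand. The SOX motif was found in 9394 windows (28.6%), which include *Nanog*, *Sox2*, and the downstream one of 2 windows of *Pou5f1*. No POU motif was found in the windows of *Pou5f1*, *Utf1*, and *Zfp281*, and *Sall4*, *Dppa2*, and *Dppa4* were not searched. The RefSeq start of *Sox2* lies upstream of the start given in the count table (34650405).

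The members spread over 4 ranges of RNA level, as the plot of FPKM by library shows. *Pou5f1* stood alone at the top, *Nanog*, *Sox2*, and *Utf1* lay between 102 and 191 FPKM in every library, *Sall4* and *Zfp281* lay between 13.02 and 19.95 FPKM, and *Dppa4* and *Dppa2* lay near or below 1 FPKM. Of the 8 members, 6 reached 1 FPKM in all 3 libraries, compared with 11125 of all 55421 named genes (20.1%). The mean levels of the same 6 lay above those of 68.9% to 99.3% of these 11125 genes. All 8 members exceeded 3 counts in every library.

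**Figure D1:**
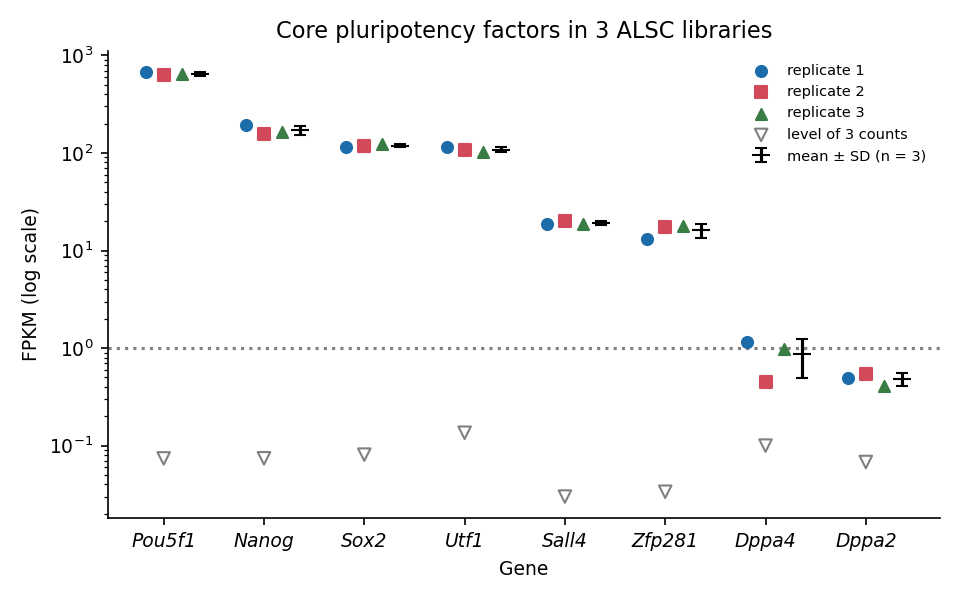
FPKM (log axis) of the 8 members in each of the 3 ALSC libraries, with the mean and SD beside them, the level that 3 counts would give (open triangles), and a dotted line at 1 FPKM. *Pou5f1* lies at 629 to 676 FPKM, while *Dppa4* and *Dppa2* lie at 0.408 to 1.16 FPKM, above the level of 3 counts.

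*Pou5f1* (ENSMUSG00000024406, chr17:35506018-35510772, forward strand, GRCm38) encodes OCT4, the POU factor without which a pluripotent cell state is not kept. It had 27507, 26471, and 25866 counts in replicates 1, 2, and 3, which gave 676, 629, and 638 FPKM and a mean of 648 ± 25.3 FPKM (SD, n = 3). Replicate 1 was the highest and the other two lay close together. *Pou5f1* took 0.146% of all counts and ranked 75 among all named genes. Its level depended on the length used, since the table's 2248 bases are the union of the exons of 6 transcripts, whereas the longest coding transcript has 1362 bases. With that transcript the mean was 1069 FPKM. Among 50-base words of the transcript, 84.1% were found in no other gene, and the largest share of the rest (15.0%) lay in the overlapping antisense RNA *Gm19553*, which had 1, 1, and 0 counts.

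*Nanog* (ENSMUSG00000012396, chr6:122707489-122714633, forward strand) encodes a homeodomain protein that stabilizes the pluripotent state. It had 7761, 6586, and 6689 counts, or 191, 157, and 165 FPKM, with a mean of 171 ± 17.96 FPKM (SD, n = 3). Replicate 1 was again the highest. Of its 50-base words 95.2% were unique, and the rest were shared with 55 other genes. Some of these are expressed, such as *Nedd4*, which shared 16 words and had 20262, 31717, and 30224 counts. The processed pseudogene *Nanog-ps1* shared 60 of the words of *Nanog* and had 0, 0, and 1 counts.

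*Sox2* (ENSMUSG00000074637, chr3:34650405-34652461, forward strand) encodes the HMG-box partner of OCT4 and is a gene of a single exon. It had 4270, 4544, and 4636 counts, or 115, 118, and 125 FPKM, with a mean of 119 ± 5.21 FPKM (SD, n = 3), so that replicate 1 was the lowest on total counts. On TMM library sizes, which are used for the test of variation below, replicate 2 was the lowest, at 115 FPKM against 118 and 124 in replicates 1 and 3. All of its 50-base words were unique. The long RNA *Sox2ot*, whose locus contains *Sox2*, had 13, 18, and 9 counts.

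*Utf1* (ENSMUSG00000047751, chr7:139943789-139945112, forward strand) is the shortest member at 1227 bases and the richest in G and C at 63.5%. It had 2566, 2438, and 2265 counts, or 116, 106, and 102 FPKM, with a mean of 108 ± 6.84 FPKM (SD, n = 3). Its ranges overlapped those of *Sox2*, and the pair changed order in replicate 1.

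*Sall4* (ENSMUSG00000027547, chr2:168748332-168767943, reverse strand) had 1892, 2068, and 1863 counts, or 18.9, 19.95, and 18.7 FPKM, with a mean of 19.2 ± 0.689 FPKM (SD, n = 3). This was the smallest coefficient of variation of the members, 3.59%. The overlapping antisense RNA *Gm14261* had 1, 4, and 4 counts. *Zfp281* (ENSMUSG00000041483, chr1:136624901-136630053, forward strand), which encodes a repressor and activator that binds G-rich DNA, had 1163, 1629, and 1575 counts, or 13.02, 17.6, and 17.7 FPKM, with a mean of 16.1 ± 2.67 FPKM (SD, n = 3). Replicate 1 lay well below the other libraries.

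*Dppa4* (ENSMUSG00000058550, chr16:48283733-48294237, forward strand) and *Dppa2* (ENSMUSG00000072419, chr16:48303908-48319723, forward strand) lie 9671 bases apart. *Dppa4* had 35, 14, and 29 counts, or 1.16, 0.450, and 0.967 FPKM, with a mean of 0.860 ± 0.369 FPKM (SD, n = 3). *Dppa2* had 22, 25, and 18 counts, or 0.497, 0.546, and 0.408 FPKM, with a mean of 0.483 ± 0.0699 FPKM (SD, n = 3). *Dppa4* reached 1 FPKM in 1 library and *Dppa2* in none. These are RNA levels of a whole culture, in which a few cells with much RNA of a gene and many cells with little of it cannot be told apart. Of the 50-base words, 64.1% of those of *Dppa4* and 70.9% of those of *Dppa2* were unique. The rest were shared with 2 and 7 processed pseudogenes, of which *Gm14058* had 0, 3, and 0 counts, *Gm9788* had 0, 5, and 3 counts, and the others had 0. Whether the sharing changed the levels of *Dppa4* and *Dppa2* was not tested. How the counting treated reads that match several genes is not given in the sources used here.

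Between neighbours in the order of levels, ranges over the 3 libraries did not overlap in 5 of 7 pairs. *Pou5f1* was 3.80 ± 0.242 times as high as *Nanog* within a library, and *Nanog* was 1.44 ± 0.197 times as high as *Sox2* (mean ± SD of 3 within-library ratios). *Sall4* was 1.21 ± 0.210 times as high as *Zfp281*, with ratios of 1.45, 1.13, and 1.05, so that the difference was largest in replicate 1. *Utf1* was 5.64 ± 0.422 times as high as *Sall4*. The 2 pairs that overlapped were *Sox2* and *Utf1*, with ratios of 0.993, 1.11, and 1.22, and *Dppa4* and *Dppa2*, with ratios of 2.34, 0.825, and 2.37. The order of these pairs did not differ beyond their spread. With 3 libraries the smallest two-sided p of an exact sign test is 0.25, so this test could not pass a threshold of 0.05 for any pair, and the orders are given as a description.

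Ratios within a library do not depend on its depth. Those of *Sox2*, *Nanog*, and *Utf1* to *Pou5f1* had coefficients of variation of 3.32% to 7.27%. That of *Nanog* to *Sox2* was 1.67, 1.33, and 1.32 in replicates 1, 2, and 3, with a coefficient of variation of 13.7%. The ratio of *Sox2* to *Pou5f1* was 0.170, 0.188, and 0.196 in replicates 1, 2, and 3 (mean 0.184 ± 0.0134), and that of *Nanog* to *Pou5f1* was 0.283, 0.249, and 0.259 (mean 0.264 ± 0.0172). The ratio of *Utf1* to *Pou5f1* varied least, at 0.171, 0.169, and 0.160 (mean 0.167 ± 0.00553). Without replicate 1 the mean ratios to *Pou5f1* were 0.192 for *Sox2* and 0.254 for *Nanog*. With the longest transcript as length the mean ratios to *Pou5f1* were 0.112 for *Sox2* and 0.162 for *Nanog*. In contrast, the ratio of *Dppa2* to *Dppa4* was 0.427, 1.21, and 0.422, and its mean of 0.687 ± 0.455 fell to 0.424 without replicate 2. Without replicate 1 that mean was 0.817.

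The table gives a transcription factor family to 1530 genes, among them 5 members and not *Utf1*, *Dppa2*, or *Dppa4*. *Pou5f1* ranked 2 of these 1530 in mean FPKM, behind *Ybx1* at 685 ± 14.5 FPKM, and *Nanog* ranked 7 and *Sox2* 10. *Sall4* ranked 92 and *Zfp281* 117. In single libraries the ranks ran from 7 to 8 for *Nanog*, 10 to 12 for *Sox2*, 86 to 99 for *Sall4*, and 110 to 127 for *Zfp281*. With the longest transcript as length the ranks were 1, 10, 14, 115, and 162. *Hmga1* and *Hmga1b*, which ranked 3 and 5, are near-identical copies whose split is uncertain.

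**Figure D2:**
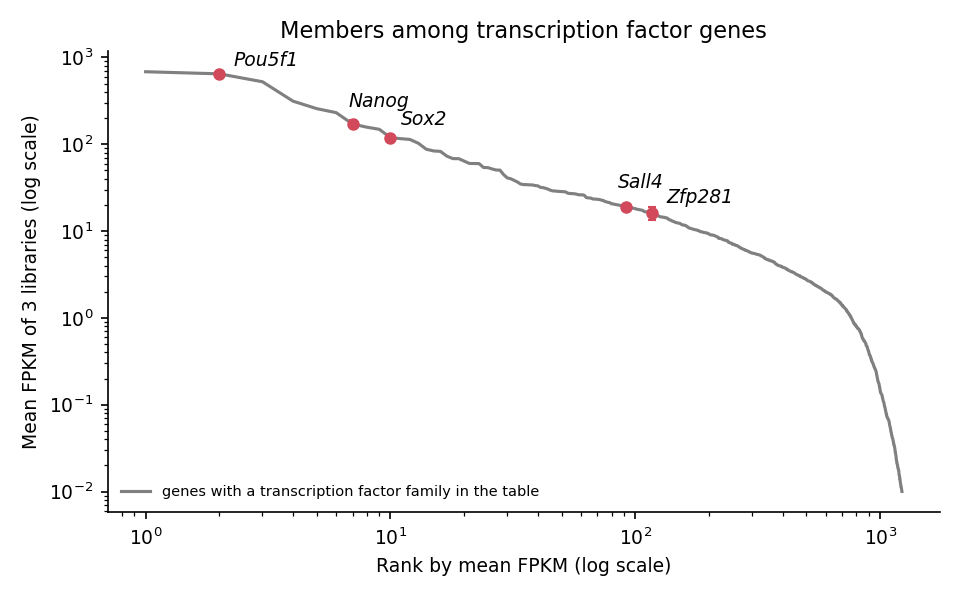
Mean FPKM of 3 libraries against rank, both on log axes, for genes with a transcription factor family in the table and a mean of at least 0.01 FPKM (grey line), with the 5 members among them in red and their SD as bars. *Pou5f1*, *Nanog*, and *Sox2* sit at ranks 2, 7, and 10, and *Sall4* and *Zfp281* at ranks 92 and 117.

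Within their own families, *Pou5f1* and *Nanog* ranked 1, and the other members lay lower. *Pou5f1* made up 95.5% of the summed FPKM of 15 POU genes, and the next was *Pou3f1*, a factor of epiblast and nerve cells, at 22.6 ± 1.44 FPKM. *Nanog* made up 48.5% of the sum over 229 homeobox genes, ahead of *Pbx2* at 34.0 ± 0.909 FPKM. *Sox2* ranked 3 of 51 HMG genes, below the chromatin proteins *Hmgb2* and *Ssrp1* at 314 ± 30.8 and 149 ± 2.84 FPKM. Among 609 genes of the C2H2 zinc finger family *Sall4* ranked 11 and *Zfp281* ranked 18, below *Maz* at 103 ± 0.938 FPKM and *Zic2* at 50.4 ± 2.03 FPKM.

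The closest relatives of the members, a list of 22 genes, ranged from 0 to 22.6 FPKM, with a median of 0.710 FPKM. Of these, 9 reached 1 FPKM in all libraries, against the 20.1% of all named genes given above. Of 10 other POU factors 3 reached that level, and of 5 SOX factors related to *Sox2* the highest was *Sox1*, an early neural gene, at 8.18 ± 0.393 FPKM. *Sox3*, which can stand in for *Sox2*, had 3.86 ± 0.284 FPKM. The SALL relative *Sall1* came close to *Sall4*, with 13.5, 19.8, and 18.6 FPKM, and its range overlapped that of *Sall4*. Of the other Dppa genes, *Dppa1* had 0 counts, *Dppa3*, a germ cell and naive state gene, had 27, 7, and 17 counts, and *Dppa5a* had 3.53 ± 0.892 FPKM.

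Genes of proteins that bind OCT4, NANOG, SALL4, or ZFP281 reached 1 FPKM in each library in 20 of 22 cases, with a median of 39.1 FPKM. This count and that of the NuRD subunits below stand beside 20.1% of all named genes. *Trim28*, a corepressor, was the highest at 242 ± 8.31 FPKM. The list holds 11 subunits of NuRD, and 11 of 11 reached 1 FPKM, from *Gatad2b* at 5.10 ± 1.06 to *Rbbp7* at 105 ± 6.57 FPKM. The genes below 1 FPKM in at least 1 library were *Tet2*, a DNA demethylase, at 0.358 ± 0.141 FPKM, and *Esrrb*, a nuclear receptor of the naive state, with 0.576, 0.945, and 0.843 FPKM. *Tet1*, the other demethylase of the list, had 7.64 ± 2.18 FPKM.

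The 12 genes known to act on *Pou5f1* or *Nanog* ranged from present to near-absent. Of them 5 reached 1 FPKM in each library, beside 20.1% of all named genes. The highest were *Zic2*, an activator of the epiblast state, at 50.4 ± 2.03 FPKM and *Tcf7l1*, which represses *Nanog*, at 28.4 ± 3.80 FPKM. *Nr6a1*, a repressor of *Pou5f1*, had 9.88 ± 1.37 FPKM. *Nr2f2*, another repressor of *Pou5f1*, had 0 counts, *Cdx2* had 0, 1, and 0 counts, and *Nr2f1* had 1, 3, and 2 counts. *Nr5a2*, an activator of *Pou5f1*, had 0.759 ± 0.103 FPKM.

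All 12 listed targets of OCT4, SOX2, and NANOG reached 1 FPKM in every library, beside 20.1% of all named genes. The highest were *Lefty1*, an inhibitor of Nodal, at 350 ± 26.9 FPKM, the Nodal co-receptor *Tdgf1* at 288 ± 7.34 FPKM, and *L1td1* at 254 ± 10.1 FPKM. *Fgf4*, bound by OCT4 and SOX2 side by side, had 4.35 ± 0.502 FPKM, and *Fbxo15* was the lowest at 1.498 ± 0.0708 FPKM. The targets of DPPA2 and DPPA4 lay at the other end. Of 11 genes, 10 had 0 counts in every library, among them 6 *Zscan4* genes of the cleavage embryo. Of all 55421 named genes, 31514 also had 0 counts in every library. *Nkx2-5* had 3, 0, and 0 counts. The *Zscan4* genes are near-identical copies, so a count of 0 may also depend on how shared reads were counted.

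**Figure D3:**
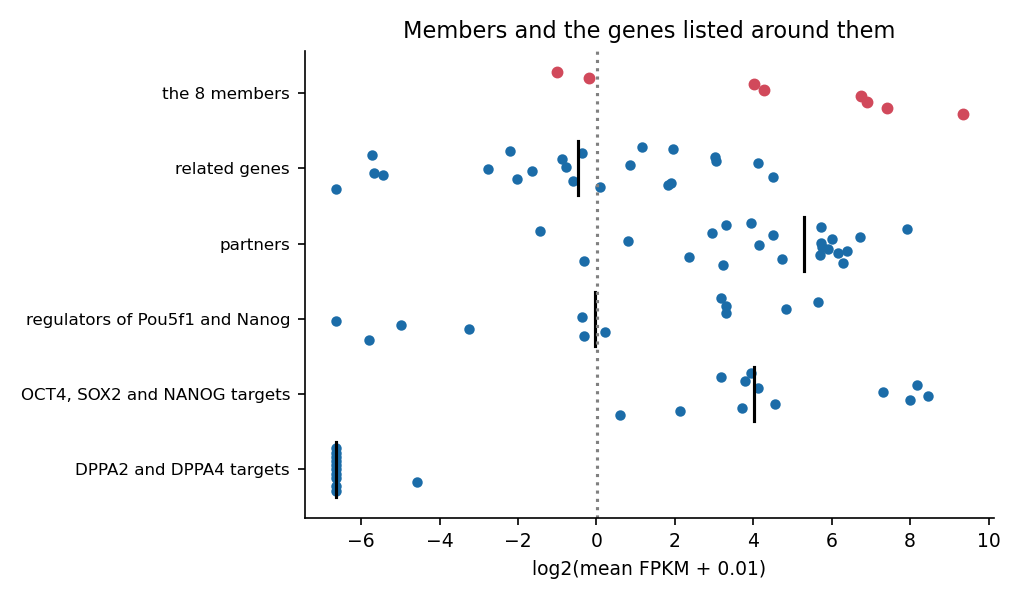
Mean level over 3 libraries, as log2(FPKM + 0.01), of each member (red) and of each gene in the lists around them (blue), with black lines at the list medians and a dotted line at 1 FPKM. The targets of OCT4, SOX2, and NANOG all lie right of the dotted line, while 10 of 11 targets of DPPA2 and DPPA4 lie at the value of 0 counts.

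The nearest protein-coding genes on the chromosome differed in level from *Pou5f1*, *Nanog*, *Sox2*, *Utf1*, and *Sall4*. *Dppa4* and *Dppa2* are next to each other and overlapped in range. Downstream of *Utf1* and upstream of it lay *6430531B16Rik* and *Kndc1* at 0.0365 ± 0.0316 and 0.160 ± 0.0501 FPKM, against 108 FPKM for *Utf1* itself. *Nanog* lay between *Dppa3*, at 1.05 ± 0.627 FPKM, and the glucose transporter *Slc2a3*, which was higher than *Nanog* at 231 ± 25.9 FPKM. *Pou5f1* lay between *H2-Q10* and *Tcf19*, at 8.03 ± 0.826 and 12.5 ± 1.39 FPKM. *Sox2* lay between *Dnajc19* and *Atp11b*, 569084 and 1101645 bases away, at 16.2 ± 3.24 and 7.33 ± 1.46 FPKM. *Sall4* lay between *Atp9a* and *Zfp64*, at 1.39 ± 0.152 and 7.31 ± 0.188 FPKM. *Kif14*, 93390 bases from *Zfp281*, had 15.97 ± 3.60 FPKM, with a range that overlapped that of *Zfp281*. On the other side of *Zfp281*, *Nr5a2* had 0.759 ± 0.103 FPKM.

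Next, the counts of each gene were compared between the 3 libraries, to see which members varied by more than counting error. By a chi-square test against TMM library sizes, with Benjamini-Hochberg adjustment over 16944 genes with at least 10 counts, 6 of 8 members varied, and 47.2% of all genes tested did so. The share of all genes is thus the background against which the members' count is read. It covers genes of any count from 10 upwards, and a share at counts like the members' was not computed. The adjusted p of the chi-square test was 2.82e-54 for *Nanog*, 1.21e-52 for *Pou5f1*, 3.95e-12 for *Zfp281*, 2.22e-08 for *Utf1*, 0.00585 for *Sox2*, and 0.0110 for *Dppa4*. *Sall4* and *Dppa2* did not pass, with an adjusted p of 0.264 and 0.719. A high count makes a small difference pass this test, as *Pou5f1* shows with a coefficient of variation of 3.90%.

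Replicate 1 was the highest library for 4 of the 6 members that varied, *Pou5f1*, *Nanog*, *Utf1*, and *Dppa4*, and it was the lowest for *Zfp281*. Of the 8003 genes that varied, 3760 had replicate 1 highest and 3748 had it lowest. These are 22.2% and 22.1% of the 16944 genes tested. Without replicate 1, 3 members still varied (*Pou5f1*, *Nanog*, and *Sox2*), and the share of all genes fell to 8.11% of 16062. *Utf1*, *Zfp281*, and *Dppa4* then had an adjusted p of 0.748, 0.822, and 0.112 in the chi-square test. *Sox2* lost its call without replicate 2 (0.0764) or without replicate 3 (0.282), and *Dppa4* lost it without replicate 2 (0.497).

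On TMM library sizes the log2 ratio of replicate 1 to the mean of replicates 2 and 3 was 0.16 for *Pou5f1*, 0.32 for *Nanog*, 0.22 for *Utf1*, and 0.78 for *Dppa4*. It was -0.37 for *Zfp281*, -0.013 for *Sox2*, 0.039 for *Sall4*, and 0.13 for *Dppa2*. The quartiles of this ratio over 16851 genes were -0.32 and 0.28, so *Nanog*, *Zfp281*, and *Dppa4* lay outside the middle of all genes and the other 5 members lay inside it. Among the genes whose mean count was 100 or more, the ratio ran with gene length, from a median of 0.39 in the shortest of 20 groups (685 bases) to -0.53 in the longest (15649 bases). With the trend on length removed, the log2 ratio became -0.054 for *Pou5f1* and -0.13 for *Utf1*, whose sign turned, and 0.10 for *Nanog*. It was -0.31 for *Zfp281*, fell to 0.48 for *Dppa4*, became -0.26 for *Sox2*, and turned to -0.063 for *Dppa2*, whose counts had not varied in the test. With GC content removed as well, *Pou5f1* was at 0.013, *Nanog* at 0.075, *Utf1* at -0.077, and *Zfp281* at -0.37. The part of gene length in these differences was not tested beyond this.

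In the lists around the members, variation between libraries is read against the same background. There 47.2% of genes varied, 22.1% with replicate 1 lowest and 22.2% with it highest. This share was not computed at counts like those of each list, and a high count makes a small difference pass. Of the related genes 7 of 18 tested varied, 5 with replicate 1 lowest and 2 with it highest. Of the partners 17 of 22 varied, 11 with replicate 1 lowest and 5 with it highest. The regulators varied in 3 of 9 cases, *Esrrb*, *Nr6a1*, and *Tcf7l1*, all with replicate 1 lowest. The targets of OCT4, SOX2, and NANOG varied in 7 of 12 cases, 1 with replicate 1 lowest and 4 with it highest, and no target of DPPA2 and DPPA4 had enough counts for the test. Without replicate 1, an alternative chosen after seeing the data, 0 of 18 related genes, 2 of 22 partners, 1 of 9 regulators, and 4 of 12 targets of OCT4, SOX2, and NANOG varied, beside 8.11% of all genes tested in that way.

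**Figure D4:**
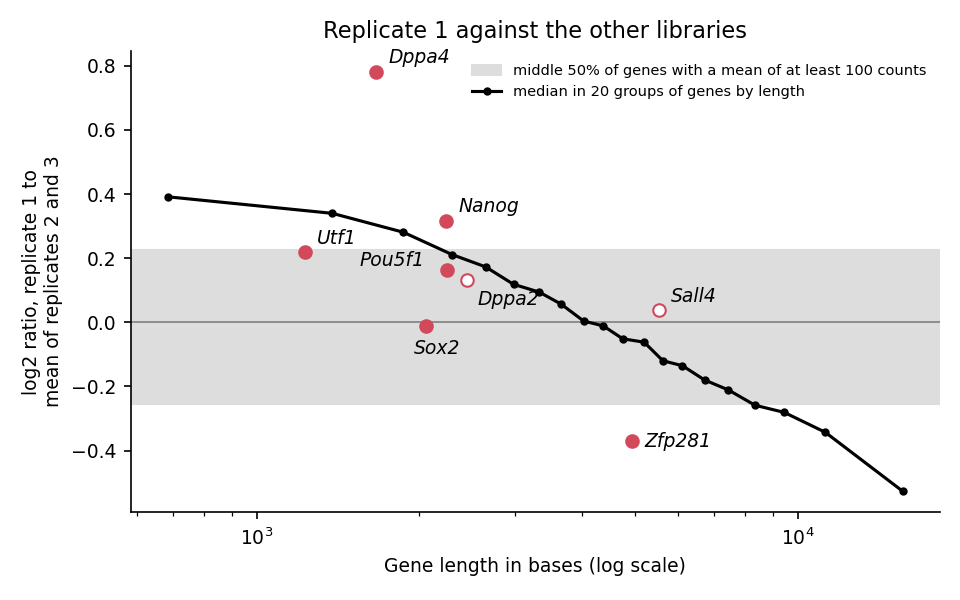
log2 ratio of replicate 1 to the mean of replicates 2 and 3 on TMM library sizes against gene length (log axis), for the 8 members (filled where the chi-square test called them, open where not), with the median of 20 length groups of genes (black) and the middle 50% of genes whose mean count was 100 or more (grey). *Pou5f1*, *Utf1*, *Nanog*, and *Dppa2* lie within 0.13 of the falling trend. The distance from it is 0.48 for *Dppa4*, 0.15 for *Sall4*, -0.26 for *Sox2*, and -0.31 for *Zfp281*. The trend rests on genes whose mean count was 100 or more, while *Dppa4* had 35, 14, and 29 counts and *Dppa2* had 22, 25, and 18.

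The tagwise biological coefficient of variation of edgeR estimates the spread beyond counting error, but with 3 libraries it is drawn strongly towards the value of other genes at a similar level, so it can exceed a gene's own spread. It was 0.119 for *Sall4*, 0.121 for *Sox2*, 0.126 for *Pou5f1*, and 0.128 for *Utf1*. At most 22.98% of the genes tested had lower values than these 4. *Nanog* and *Zfp281* had 0.139 and 0.142, and *Dppa2* had 0.182. *Dppa4* had 0.314, above 90.0% of the genes tested.

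For each member the protein-coding gene with the most similar level in the 3 libraries was looked up among 13817 genes, by the distance between log2 levels. The nearest to *Pou5f1* was the glycolytic enzyme *Aldoa*, with 712, 622, and 626 FPKM at a distance of 0.0813. The nearest to *Nanog* was *Atp5g3*, a subunit of the mitochondrial ATP synthase, with 194, 158, and 162 FPKM at a distance of 0.0357. *Ywhaz* was nearest to *Sox2*, *Asna1* to *Utf1*, *Max* to *Sall4*, *Dpysl5* to *Zfp281*, *Hist1h2ad* to *Dppa4*, and *Lpcat2* to *Dppa2*. Since only 3 libraries of one condition enter this measure, it describes levels in these libraries and nothing more.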

How the data were processed

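Poly(A) RNA of 3 ALSC libraries was prepared with a TruSeq kit. The authors aligned reads with HISAT2 2.0.5 (submitters' processing notes) and deposited raw counts per gene. The counting program, strand setting, and treatment of reads with several matches are not given in the sources used here. The table's columns, named EPI and AL, were matched to the ALSC titles by AL and replicate number, and whether EPI stands for epiblast or EpiSCs is not stated. A further 3 columns, named AF_SCs, match no sample of the series and were not used. Rows without a gene name held 0.165% to 0.182% of counts and were left out.

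FPKM was computed from deposited counts, total counts on named genes, and the table's gene length, which equals the exon union in GENCODE M21 for the 8 members. TMM sizes and dispersions came from edgeR 4.0.16, and DESeq2 1.42.0 gave alternative size factors. The chi-square test (threshold 0.05, checked on simulated data; SciPy 1.17.1) covers genes with at least 10 counts. Trends of the replicate 1 ratio on gene length and GC content were removed as medians over 20 groups of genes. Named genes were the 8 members, the extremes of each list, neighbours, overlapping genes, pseudogenes, and the nearest gene by level. Members and lists were chosen with earlier results of these data known. Alternatives were other library sizes, lengths, filters, thresholds, and leaving out each library.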

Additional observations from a re-analysis of the deposited data

How the results depend on the processing

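No paired analysis was possible because all 3 libraries belong to 1 condition. The level of *Pou5f1* was 1788 as TPM and 1069 FPKM with the longest transcript. As TPM, *Nanog* was at 471, *Sox2* at 330, *Utf1* at 298, *Sall4* at 53.0, *Zfp281* at 44.9, *Dppa4* at 2.34, and *Dppa2* at 1.34. *Sall4* was at 20.9 FPKM with the longest transcript. With that length the ratio to *Pou5f1* was 0.112 for *Sox2* and 0.162 for *Nanog*. Leaving out replicate 1, 2, or 3 gave 3, 4, and 5 varying members, compared with 6 from all libraries. The varying genes were then 1302 of 16062 tested (8.11%), 6830 of 15923 (42.9%), and 7490 of 16026 (46.7%). From all libraries they were 8003 of 16944 (47.2%).

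Relative to replicates 2 and 3, the log2 ratio of replicate 1 turned sign with the length trend removed for *Pou5f1* (-0.054) and *Utf1* (-0.13), and for *Utf1* also with the GC trend removed (-0.077). It moved to 0.013 for *Pou5f1* with both trends removed. With the length trend removed alone and with both removed, it was 0.098 and 0.075 for *Nanog*, -0.26 and -0.24 for *Sox2*, and 0.15 and 0.18 for *Sall4*. For *Dppa2*, whose counts did not vary, it also turned sign, to -0.063 with the length trend and -0.11 with both removed. For *Dppa4* it fell from 0.78 to 0.48 in both cases. On total counts it was -0.082 for *Sox2*, -0.031 for *Sall4*, 0.095 for *Pou5f1*, and 0.060 for *Dppa2*. The ratio of *Dppa2* to *Dppa4* was 0.424 to 0.820 with a library left out, lowest without replicate 2. The cause was not tested. In replicates 1 and 2 alone, 6 of 7 neighbouring pairs kept their order. The other alternatives moved levels and ratios by less than 1 SD and counts of members or of all genes by less than 1.5 times. Calls of single members that depend on a library are given beside them above. *Dppa2* and *Dppa4* rest on 14 to 35 counts a library, so differences between libraries in them were little resolved at this depth.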
